A study of Bos taurus with 45 samples.

Results

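*VNN1* (ENSBTAG00000015094), the gene of vanin 1, is described here in the ruminal papillae of 15 heifers as the share of grain in their diet was raised. It is 1 gene of the 24616 in the deposited files. It was chosen by its measured values, since its mean expression was lower on each diet with more grain than on the one before, and its levels and diet steps are therefore given as a description with no test. The papillae line the rumen, the fermentation chamber of the bovine forestomach, and were sequenced as bulk tissue, 45 samples in all. The unit is RPM, the reads counted on a gene per 1000000 reads on all genes of the same library. RPM is not corrected for gene length, so values are compared between samples of a gene and not between genes.

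Vanin 1 is a pantetheinase, an enzyme tethered to the outer face of the cell membrane. It splits pantetheine, a breakdown product of coenzyme A, into pantothenate, the vitamin from which coenzyme A is rebuilt, and cysteamine, a small aminothiol. In liver and gut its gene is a known target of the fatty acid receptor PPAR alpha, and the enzyme has been tied to oxidative stress and inflammation of the gut.

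All animals were Angus-Hereford cross-bred yearling heifers of about 8 months, and each was biopsied in the ventral sac of the rumen on every diet. The 0% grain sample was taken on day 3, the 72% grain sample on day 15 and the 89% grain sample on day 26 of 1 feeding schedule. By the study's methods, the schedule also held diets of intermediate grain content between the sampled ones. A step between sampled diets thus spans more than 1 change of feed. The 89% grain sample was taken after more days on its diet than the others. The sample labels name the sampled diets by 3%, 75% and 92% grain, and the percentages of the study's methods are used here. Every heifer met the diets in the same order, with no animals held on 0% grain beside them in these samples, so diet and time on trial cannot be told apart. The heifers also fall into 3 pH groups of 5, which the labels do not give and which were taken from the study by heifer number. Mean ruminal pH fell from 72% to 89% grain in the down group (DG), rose in the up group (UG) and stayed alike in the balanced group (BG). A heifer's group was thus set by a later measurement than its first sample.

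In units of 1000000 reads, between 22.53 and 37.08 lay on genes in each library, and the medians were 30.8 (0% grain), 28.38 (72%) and 31.01 (89%). The 0% grain library of heifer 172 was the least like the others of its diet (median correlation 0.957 across genes), followed by that of heifer 170 (0.963). On 72% grain the lowest such value was 0.973, in heifer 262, whose library there was also the shallowest of all. On 89% grain the lowest was 0.976, in heifer 286, close to 0.977 in heifer 352. The lane of each library is not given in the sources used here, so no value could be repeated within a lane. The files carry gene identifiers without names, so marker genes of the papillae and of other cell types could not be looked up and the tissue label was not checked.

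With 0%, 72% and 89% grain, expression of *VNN1* averaged 5.19 ± 3.59, 2.28 ± 1.67 and 1.09 ± 0.68 RPM, respectively (SD, n = 15). On 0% grain the heifers ran from 1.32 RPM through a median of 4.39 RPM to 13.7 RPM. On 72% grain they ran from 0.53 through 1.89 to 6.71 RPM, and on 89% grain from 0.42 through 0.98 to 2.96 RPM. The ranges of the 3 diets overlapped. In bulk papillae, fewer cells that express *VNN1* and less *VNN1* RNA per cell cannot be told apart.

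The order of the means was 0%, then 72%, then 89% grain, and neighbouring diets in this order differed by about as much as heifers did within a diet. Geometric means were 4.18, 1.82 and 0.93 RPM, and the SD over heifers on the log2 scale was 0.99, 1.01 and 0.83. Of the 15 heifers, 6 on 72% grain lay below the lowest value on 0% grain, and 4 on 89% grain lay below the lowest value on 72% grain. Between the ends of the schedule the ranges parted more, with 10 of 15 values on 89% grain below every value on 0% grain. All 15 heifers exceeded 1 RPM on 0% grain, the study's detection limit, against 12 on 72% grain and 7 on 89% grain. *VNN1* therefore counts as detected in every heifer on 0% grain only, although no sample had fewer than 12 of its reads.

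In DG, where ruminal pH fell on the last diet, 4 of 5 heifers were lower on 72% than on 0% grain. Heifer 182 had 10.9 RPM on 0%, 1.13 RPM on 72% and 1.05 RPM on 89% grain. Heifer 170 had 5.16, 1.33 and 1.33 RPM in the same order. For both, nearly all of the fall lay in the first step. Heifer 314 had 6.59, 4.27 and 1.45 RPM, and heifer 236 had 3.51, 2.20 and 0.59 RPM, so that these animals were lower at each step. Heifer 192 had 2.39, 2.78 and 1.18 RPM and was lower only at the second step.

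In BG, heifer 172 had the highest value of all 45 samples, 13.7 RPM on 0% grain, and then 2.62 and 2.96 RPM. Heifer 362 had 8.88, 1.89 and 0.42 RPM, ending at the lowest value of all samples. Heifer 294 had 4.51, 1.27 and 0.46 RPM, and heifer 258 had 2.63, 1.00 and 0.50 RPM. These last 3 heifers were lower at both steps and finished between 0.42 and 0.50 RPM on 89% grain. Heifer 246 kept 4.39 and 4.09 RPM on the first 2 diets and had 1.87 RPM on the last.

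UG had the lowest mean on 0% grain, and its 5 heifers took varied courses. Heifer 286 had 6.58 RPM on 0% and 6.71 RPM on 72% grain, the highest value on that diet, and 0.49 RPM on 89% grain. Heifer 178 had 3.42, 1.11 and 0.72 RPM, and heifer 352 had 2.28, 2.50 and 0.98 RPM. The 2 heifers with the lowest values on 0% grain had their lowest values on 72% grain. Heifer 262 went from 1.58 to 0.53 and back to 0.89 RPM, and heifer 360 from 1.32 to 0.78 and then 1.45 RPM, the only animal above its own 0% grain value on 89% grain.

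**Figure D1:**
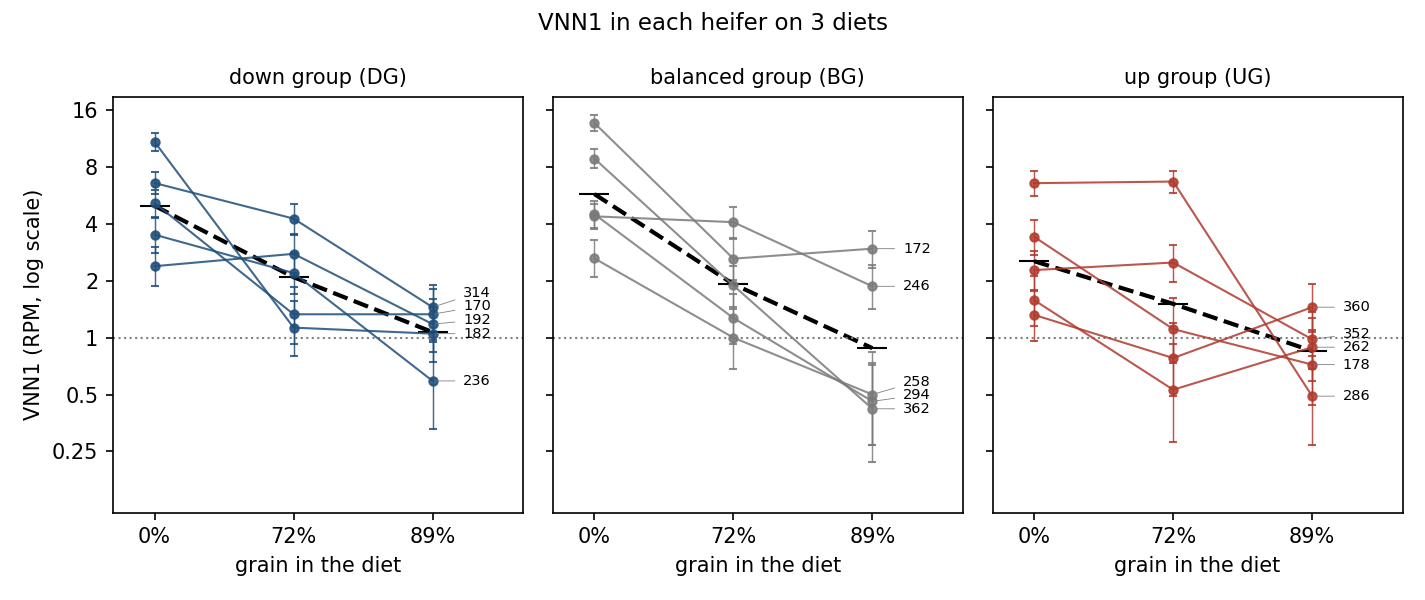
*VNN1* in RPM on a log scale (y axis) for each heifer on 0%, 72% and 89% grain (x axis), 1 panel per pH group. Points are single samples with exact Poisson 95% intervals for counting error, labels are heifer numbers, the dashed line joins geometric means and the dotted line is 1 RPM; the 15 heifers all start above 1 RPM, and 8 end at or below it.

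The first step, from 0% to 72% grain, took *VNN1* down 2.3-fold as a geometric mean over heifers, or by −1.20 ± 1.05 (SD, n = 15) as the log2 ratio within a heifer. It was lower in 12 heifers and higher in 3, from −3.26 in heifer 182 to 0.22 in heifer 192. The second step, from 72% to 89% grain, was 1.96-fold, with a log2 ratio of −0.97 ± 1.21. It too was lower in 12 and higher in 3, from −3.79 in heifer 286 to 0.88 in heifer 360. The 12 include heifer 170, with a ratio of 0.997. From 0% to 89% grain the log2 ratio was −2.17 ± 1.22, a 4.5-fold lower level, lower in 14 of 15 heifers. Without heifers 172 and 286 together, the least like the others on 0% and on 89% grain, the steps were −1.20, −0.84 and −2.05.

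On both scales the first step was the larger in the mean, by a margin that depended on the scale. In RPM the first step averaged −2.90 ± 3.60 and the second −1.19 ± 1.72, and 70.9% of the mean fall lay in the first. As log2 ratios the first held 55.3% of the fall. The first step was the larger in 9 of 15 heifers on either scale. The first step minus the second averaged −0.23 ± 1.91 as a log2 ratio, a difference far smaller than its spread over heifers.

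The reads behind these values set how far a single heifer can be read. *VNN1* had 45 to 448 reads per sample on 0%, 12 to 214 on 72% and 13 to 82 on 89% grain. Whether a read pair was counted once or by each mate is not given in the sources used here, and the totals of reads on genes are on the whole above the number of reads per sample that the study states. Intervals from these reads cover counting error only, and would be too narrow if mates had been counted. The SD that counting gives to a log2 ratio was 0.27 at the first step and 0.37 at the second, as a root mean square over heifers. Both are well below the spread between heifers of 1.05 and 1.21.

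By the 95% counting intervals, 5 heifers (314, 236, 294, 362 and 258) had both steps below 0. In heifer 362 the steps were −2.23 (−2.64 to −1.84) and −2.17 (−3.16 to −1.30). Another 5 (170, 182, 172, 262 and 178) had only the first step below 0, and 4 (192, 246, 352 and 286) had only the second. Heifer 286 was the clearest of the latter, with 0.03 (−0.27 to 0.33) and then −3.79 (−4.65 to −3.03). Heifer 360 had neither, and its second step lay above 0, at 0.88 (0.13 to 1.68). With all counts halved, as if each pair had been counted by its 2 mates, heifers 294, 314 and 362 had both steps below 0, heifers 236 and 258 had 1 of them, and the second step of heifer 360 spanned 0 (−0.20 to 2.06). Each heifer gave 1 biopsy per diet, so the spread between biopsies of an animal was not measured and these counts do not sort heifers into kinds. Both ratios of a heifer share its 72% grain sample, so error in that sample moves them in opposite directions. Counting by direction alone, *VNN1* was lower at both steps in 9 of 15 heifers. The 9 include heifer 170, whose second step was a ratio of 0.997, or nearly no change.

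**Figure D2:**
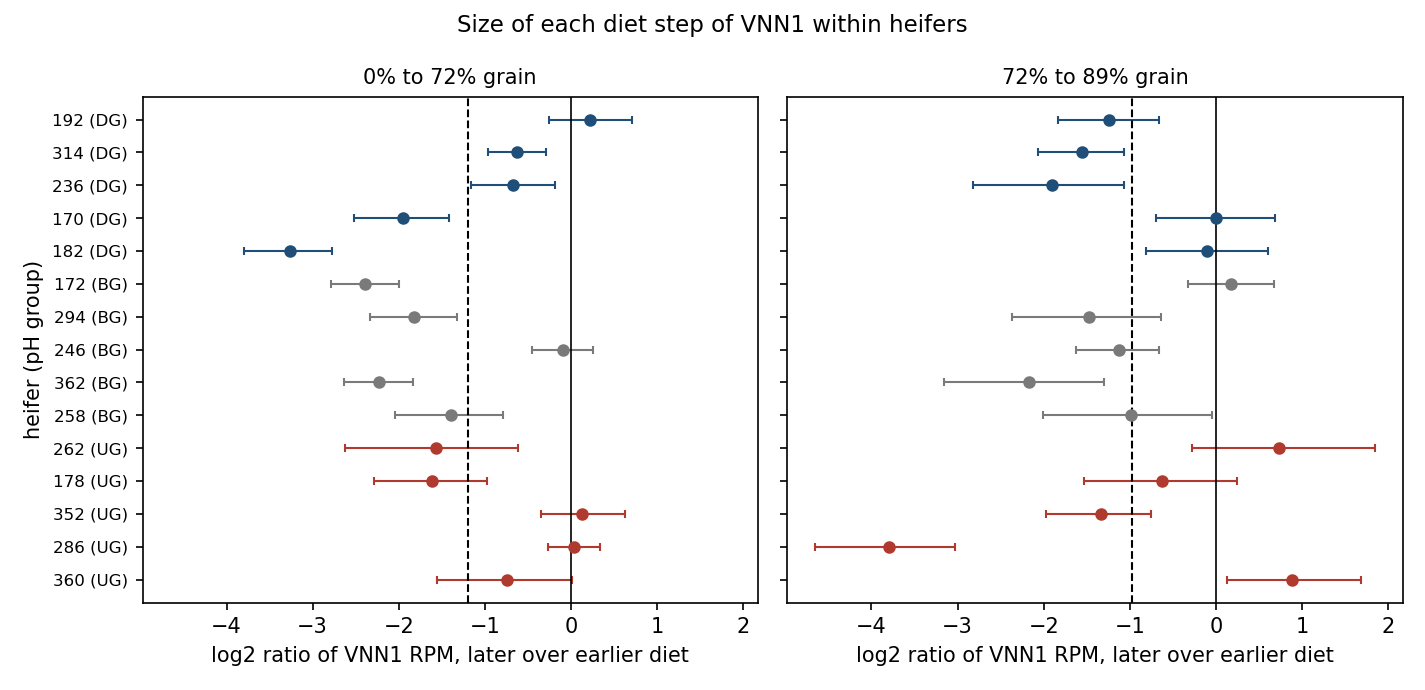
Log2 ratio of *VNN1* RPM, later over earlier diet (x axis), for each heifer (y axis, with its pH group), with 0% to 72% grain on the left and 72% to 89% grain on the right. Bars are 95% intervals for counting error and dashed lines are the means over heifers, −1.20 and −0.97; the heifers near 0 on the left are mostly far below 0 on the right, and the reverse.

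Means of the pH groups were farthest apart on 0% grain, where UG averaged 3.03 ± 2.14 RPM (SD, n = 5) against 5.70 ± 3.30 RPM in DG and 6.82 ± 4.48 RPM in BG. On 72% grain the means were 2.33 ± 2.56, 2.35 ± 1.27 and 2.17 ± 1.24 RPM in the same order. On 89% grain they were 0.90 ± 0.36, 1.12 ± 0.33 and 1.24 ± 1.14 RPM. The groups overlapped on every diet, and no difference between neighbours in these orders was larger than the larger SD of the pair. At or below 1 RPM on 89% grain were 4 heifers of UG, 3 of BG and 1 of DG.

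From 0% to 72% grain the log2 ratio was −1.26 ± 1.36 in DG, −1.59 ± 0.91 in BG and −0.75 ± 0.84 in UG. The DG value was −0.76 without heifer 182 and −1.63 without heifer 192. From 72% to 89% grain, the step over which the groups were defined, the ratios were −0.96 ± 0.86, −1.12 ± 0.85 and −0.83 ± 1.90. The UG value was −0.09 without heifer 286 and −1.26 without heifer 360. Over the whole schedule the ratios were −2.22 ± 0.86, −2.71 ± 1.20 and −1.58 ± 1.48, and that of UG was −1.04 without heifer 286.

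Whether heifers kept their order from diet to diet was tested over the 15 heifers on log2(RPM + 1). *VNN1* was chosen by its diet means and not by this order. The same paired values also give the steps within heifers described above, so the test is not independent of them. Pearson's r between 0% and 72% grain was 0.39 (two-sided permutation p = 0.16, Benjamini-Hochberg adjusted p = 0.47 over 3 pairs of diets). Spearman's rho was 0.44 (permutation p = 0.10, adjusted 0.30). Between 72% and 89% grain r was 0.17 (permutation p = 0.54, adjusted 0.54) and rho 0.24 (permutation p = 0.38, adjusted 0.57). Between 0% and 89% grain r was 0.23 (permutation p = 0.42, adjusted 0.54) and rho 0.05 (permutation p = 0.86, adjusted 0.86). None of the 3 relations passed the test, so an order of heifers in *VNN1* that lasted over the diets was not detectable with 15 animals.

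Leaving out the 2 heifers farthest from the median of the earlier diet gave r = 0.28 for 0% and 72% grain (without 172 and 360, permutation p = 0.34). For 72% and 89% grain it gave 0.45 (without 262 and 286, permutation p = 0.13), and for 0% and 89% grain −0.02 (without 172 and 360, permutation p = 0.94). The weak positive r between the ends of the schedule thus rested on heifers 172 and 360, the highest and the lowest on 0% grain. *VNN1* and the number of reads on genes of a library correlated with r = 0.12, 0.14 and −0.10 on the 3 diets (permutation p = 0.67, 0.62 and 0.73, each adjusted to 0.73). Without the 2 libraries of most extreme depth r was 0.27, 0.29 and −0.10.

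**Figure D3:**
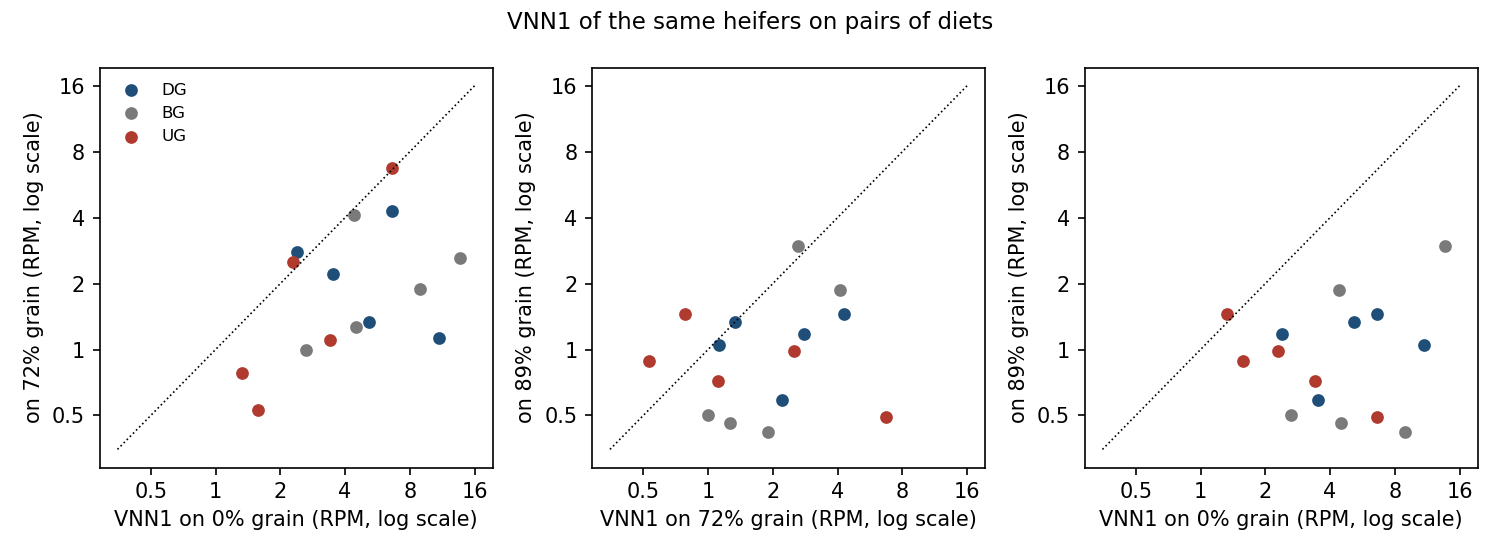
*VNN1* of the same heifer on 2 diets, both axes in RPM on log scales, for 0% and 72%, 72% and 89%, and 0% and 89% grain from left to right. Each point is 1 of 15 heifers, coloured by pH group, and the dotted line marks equal values; 12, 12 and 14 heifers lie below it, and r was 0.39, 0.17 and 0.23.

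The place of *VNN1* among all genes is also a description, because it was chosen for its fall. It is given over the 11516 genes that exceeded 1 RPM in every heifer on some diet, a filter that *VNN1* passed through 0% grain only. On log2(RPM + 1), which understates changes of low genes, the mean of *VNN1* changed by −0.86 (SE 0.25) at the first step, −0.57 (SE 0.19) at the second and −1.42 (SE 0.22) over both. These SEs come from fits that do not pair the samples of a heifer. Fits that pair them gave SEs of 0.19, 0.16 and 0.19. Counted from the most negative change, the 3 changes ranked 5th, 25th and 3rd of 11516 genes. The median change of all genes was 0.08, −0.03 and 0.06.

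Both mean steps were negative for 1563 genes, or 13.6%. Besides *VNN1*, 4 genes had both at or below −0.5, and none of them was as low as *VNN1* at both. The nearest was lower at the second step, at −1.01, and differed by 0.007 at the first, so the place of *VNN1* there is narrow. A fall at both steps in 9 or more heifers was seen for 53 genes, or 0.46%, against a median of 2 heifers over all genes and a highest count of 12. Mean RPM was halved or more at each step for 2 genes. The other was ENSBTAG00000039028, named after its values were seen, with 233.4 ± 393.65, 103.01 ± 150.25 and 41.0 ± 44.15 RPM on the 3 diets. It fell at both steps in 3 heifers only, and its SDs exceed its means.

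**Figure D4:**
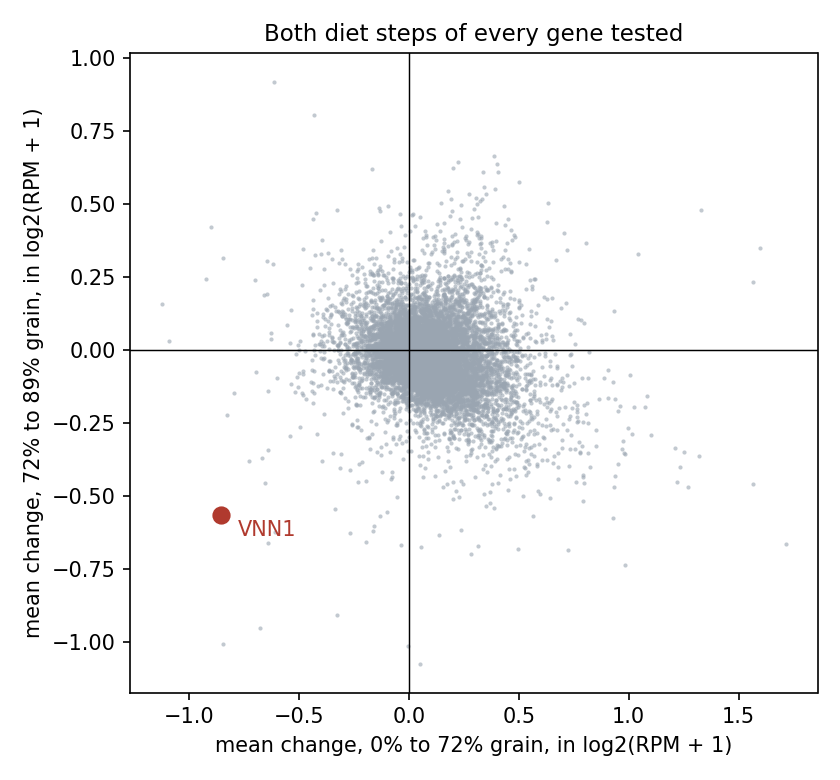
Mean change of each of 11516 genes from 0% to 72% grain (x axis) and from 72% to 89% grain (y axis), both in log2(RPM + 1). *VNN1* (red) lies in the lower left corner at −0.86 and −0.57, where both steps are negative, while most genes lie near 0 on both axes.

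How many genes changed with each step is given as background only, since *VNN1* was chosen on these contrasts and nothing about it is read from the shares. At a limma adjusted p under 0.05, 1.88% of the 11516 genes were lower and 18.5% higher on 72% than on 0% grain. On 89% against 0% grain 2.92% were lower and 15.1% higher. On 89% against 72% grain limma called 0% lower and 0% higher, with 1330 genes at an unadjusted p under 0.05, and edgeR's quasi-likelihood test on recovered reads called 3 genes. With the heifer as a block, which pairs the samples of an animal, limma called 92 genes for this last comparison, 42 of them lower. The split between directions depended on the scaling. For 72% against 0% grain it was 2127 higher and 216 lower as deposited, and 747 and 820 after TMM scaling. For 89% against 0% grain it was 1740 and 336, and 1092 and 935 after TMM scaling. The *VNN1* steps moved little with it, to −1.30, −0.94 and −2.24 as log2 ratios within heifers.

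Of the genes the study pairs with an identifier, *BMP6*, *FOSB* and *BOLA-A* passed 1 RPM in every heifer on 0% grain only, as *VNN1* did. Membership of this class favours lower values on the other diets, so their falls are a description only. Over all genes tested, the median number of heifers lower at both steps was 2. *BMP6*, a bone morphogenetic protein, had 5.87 ± 4.13, 2.93 ± 1.33 and 1.97 ± 0.78 RPM. It was lower in 12 heifers at the first step, 11 at the second and 8 at both, and in 13 from 0% to 89% grain. *FOSB*, an immediate early transcription factor, had 10.95 ± 8.56, 4.07 ± 2.70 and 10.80 ± 19.85 RPM. It was lower in 12 heifers at the first step, 11 at the second, 9 at both and 12 from 0% to 89% grain, so its mean on 89% grain did not follow most heifers. *BOLA-A*, a class I histocompatibility gene, had 9.11 ± 3.64, 8.23 ± 2.86 and 8.21 ± 3.40 RPM, a difference between diets far inside the spread of heifers. The log2 ratio within heifers was −0.85 ± 1.28 and −0.53 ± 0.93 for *BMP6*, −1.33 ± 1.30 and −0.19 ± 2.46 for *FOSB*, and −0.14 ± 0.42 and −0.05 ± 0.28 for *BOLA-A*, at the first and second step.

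Likeness to *VNN1* was measured as Pearson's r of log2(RPM + 1) over the 45 samples, which share heifers, diets and libraries, and is given with no p. Over the 11515 other genes the median r was −0.05, and 1st and 99th percentiles were −0.54 and 0.51. The highest was ENSBTAG00000016374 with r = 0.72, at 6.93 ± 1.77, 4.68 ± 1.05 and 4.12 ± 1.25 RPM on the 3 diets. With the means of diet and heifer removed, its r was still 0.66, above the 99th percentile of 0.55 for such residuals. It was not among the 10 genes with the highest residual r, which reached 0.78. The second highest over the 45 samples, ENSBTAG00000010670 with r = 0.69, was among those 10, with a residual r of 0.71. Over the 45 samples the lowest was ENSBTAG00000007062 with r = −0.70, at 88.01 ± 32.18, 131.96 ± 30.6 and 161.32 ± 23.13 RPM. Next was ENSBTAG00000013116 with −0.68, at 1.51 ± 0.48, 1.85 ± 0.41 and 2.74 ± 0.96 RPM. Their residual r was −0.35 and −0.33. Of the 100 genes most like *VNN1* over all samples, 19 were also among the 100 most like it on the residuals. Over the 10 other genes with a symbol and an identifier in the study, r ran from −0.34 (*ABCG1*, a cholesterol exporter of the cell membrane) to 0.50 (*BMP6*), with 0.43 for *FOSB* and 0.12 for *BOLA-A*. On the residuals it ran from −0.40 (*RASL1A*) to 0.49 (*CTGF*), with 0.03 for *ABCG1* and 0.33 for *BMP6*.

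In the RefSeq annotation of assembly ARS-UCD2.0, *VNN1* lies between *TAAR1*, a receptor for trace amines, and *VNN2*, another vanin. The table lists 2 vanin genes. The row of *VNN2* was not analysed here, and how reads that match both vanins were counted is not given in the sources used here.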

How the data were processed

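RNA of ruminal papillae from 15 heifers on 3 diets was sequenced as paired-end reads from TruSeq mRNA libraries. Per the labels and the study's methods, the authors demultiplexed the reads with CASAVA 1.8, aligned them to the bovine genome UMD 3.1 with TopHat 2.0.10, counted reads on Ensembl genes with HTSeq, and deposited RPM in a file for each sample. RPM added up to 1000000 in every file, which makes the reads on genes the divisor. All values (100%) were whole multiples of 1 read to within 0.01 read (largest deviation 0.00139), which gave the reads per gene, and in none of 990 pairs of samples did these agree within sampling noise (chi-square divided by its degrees of freedom, lowest 17.67).

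Diet groups came from the labels and pH groups from the study. Step sizes are log2 ratios of RPM within a heifer with no pseudocount. Counting intervals are exact (95%), Poisson for a level and binomial for a ratio. Background shares came from limma 3.58.1 (R 4.3.3) with the trend option and log2(RPM + 1) as input, over genes that exceeded 1 RPM in every heifer on some diet, fitted on the samples of 2 diets with no term for the heifer, with Benjamini-Hochberg adjustment over all genes tested. edgeR 4.0.16 was run on the recovered reads as an alternative. Correlations used 100000 permutations in Python 3.11.15 with scipy 1.17.1.

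Samples of a heifer come from the same animal, so heifer numbers pair the samples. Deviations from the diet means had a median correlation of 0.356 over 45 same-heifer pairs (39 over 0.1) and −0.022 over 630 other pairs. Alternatives were other pseudocounts and scalings, no expression filter, the heifer as a block, all samples in 1 fit, a fold minimum, and each heifer left out. Leaving out heifers 172 and 286 together, and halving the counts behind the intervals, were chosen after seeing the data.

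*VNN1* and all lists were chosen with earlier results of these data known. The named genes were to be *VNN1*, its neighbours, the 10 genes with the highest r to it and the 5 with the lowest, and members of 5 pathway lists. The files give identifiers only, and of the 13 pathway and marker lists only *VNN1* could be matched to a row, so these lists are not analysed here and at most 2 unnamed identifiers are printed per direction. Outside the rule, the study pairs 10 other symbols with identifiers. Of these, *BMP6*, *FOSB* and *BOLA-A* are described because they share the 0% grain class of *VNN1*, and *ABCG1*, *RASL1A* and *CTGF* are named as ends of a range.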

Additional observations from a re-analysis of the deposited data

How the results depend on the processing

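The *VNN1* steps kept their direction and stayed within 1 SD of the values given under every alternative run. Leaving out each heifer in turn gave −1.30 to −1.05 for 0% to 72% grain, −1.10 to −0.77 for 72% to 89% grain and −2.33 to −2.01 for both, and pseudocounts of 1 gave −0.86, −0.57 and −1.42. Within pH groups the ranges were −1.63 to −0.76, −1.96 to −1.39 and −0.98 to −0.54 at the first step (DG, BG, UG), −1.20 to −0.73, −1.44 to −0.86 and −1.26 to −0.09 at the second, and −2.52 to −1.93, −3.08 to −2.28 and −2.01 to −1.04 over both. The correlation between 0% and 89% grain turned to −0.02 without heifers 172 and 360, and no other correlation changed sign.

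Counts over all genes moved more. For 72% against 0% grain, 2343 genes passed, against 1567 after TMM and 1544 after median-of-ratios scaling, 177 with a fold change over 1.5, and 1969 and 2482 without heifers 172 and 286. For 89% against 0% grain, 2076 passed, against 238 with the fold minimum and 1647 and 2512 without those heifers. For 89% against 72% grain, 0 passed, against 9 after either scaling and 3 with edgeR, with 0 without either heifer. A replicate block for the heifer gave 3193, 2358 and 92 genes in that order. The block left the *VNN1* means as they were. The cause of these shifts was not tested. Few reads limit *VNN1* on 72% and 89% grain, where a sample held 12 to 214 and 13 to 82 of them. Median depth was not lower on 89% than on 0% grain.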
